A study of Sus scrofa with 15 samples.

Results

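The genes described here encode clotting factors, their cell-surface partners and their natural inhibitors, measured in the kidneys of pigs. Every gene from a named list of 10 was followed. These were F3, F7, F2, F8, F9, VWF, F2R, TFPI, THBD and PROC, and all 10 were found among the 3020 genes that could be given a symbol on the array. They were covered by 15 of its 43603 probes. F2, F7, F8, F9, PROC and TFPI had 1 probe each, F2R, F3 and VWF had more than 1, and THBD had the most, with 3. The animals were 15 female Yorkshire pigs, 20 weeks old, with 5 in each group and 1 array per pig. All of them had lost the left kidney 1 week earlier, and all of them underwent 90 min of warm ischemia of the right kidney, made by clamping its artery and vein. The control pigs received no preconditioning. The rIPCe pigs (remote ischemic preconditioning, early window) had 2 cycles of 10 min of clamping of the right external iliac artery, each followed by reperfusion, directly before renal ischemia. The rIPCl pigs (late window) had the same cycles, with renal ischemia 24 h later. Right kidneys were harvested 72 h postoperatively, so that every group was ischemic and solitary-kidneyed and none was uninjured.

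Coagulation begins when tissue factor (F3), a membrane protein kept away from blood, meets factor VII (F7). The complex activates factors IX and X, and factor IXa with its cofactor factor VIIIa amplifies the reaction on platelet membranes until prothrombin (F2) is cleaved to thrombin. Thrombin makes fibrin and signals to cells through the receptor F2R, and when bound to thrombomodulin (THBD) on endothelium it instead activates protein C (PROC), which inactivates factors V and VIII, while TFPI blocks the starting complex. Prothrombin, factors VII and IX and protein C in plasma come mainly from the liver, whereas von Willebrand factor (VWF), factor VIII, TFPI and thrombomodulin are known as products of endothelial cells. An array of whole renal tissue reports transcripts present in the kidney and does not report the plasma proteins.

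Values are log2 signals, that is, the scanner's background-corrected brightness after log2 transformation and quantile normalization, so a difference of 1 is a doubling. Levels of single genes were compared between arrays for the same probe and not between probes. A summed signal of a marker list is the log2 of the added linear signals of its genes. The brightest probes of a list therefore weigh most in its sum. A gene with several probes was represented by its brightest probe. For the named clotting genes, the other probes are given beside it. For all other genes, including those of the wider pathway and the marker lists, values of the other probes are not given. The arrays were printed on 4 slides, and these did not hold the groups evenly. Slide 1 held control pigs 1 to 4, slide 2 held control pig 5 and rIPCe pigs 1 to 3, slide 3 held rIPCe pigs 4 and 5 and rIPCl pig 1, and slide 4 held rIPCl pigs 2 to 5. No slide held both control and rIPCl arrays. The percentage of spots well above background was 62.2% to 69.5% on the control arrays, 67.4% to 73.9% on the rIPCe arrays and 71.8% to 74.2% on the rIPCl arrays. Among the kidney markers, the 7 measured proximal tubule genes were well above background on all 15 arrays.

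None of the 10 genes passed the adjustment for multiple testing in any comparison. The differences that stood out before adjustment were lower F9, PROC and THBD and higher F7 and F8 in rIPCl, and higher F7 and F2R in rIPCe. In rIPCl versus control, limma with Benjamini-Hochberg adjustment over all probes called 0 of the 10 genes, against 9.5% of all 3020 named genes. At an unadjusted p under 0.05 it gave 5 of the 10, against 35.1% of all named genes, and 2 of these 5 were higher and 3 lower. A difference at that level was therefore common among the genes of this comparison. The methods' t-test gave the same counts, 0 adjusted and 5 unadjusted, against 4.74% and 34.1% of all named genes by that test. Of all 10, 5 were higher and 5 lower, and their median log2 fold change was −0.00, beside −0.02 over all named genes. All 5 rIPCl arrays lay above or all 5 below every control array in 0 of the 10 genes, against 10.8% of the 3016 named genes with a value on all these arrays. In rIPCe versus control, limma and the methods' t-test each gave 0 of the 10 after adjustment, against 0% of all named genes, and 2 at an unadjusted p under 0.05, against 16.1%. In rIPCl versus rIPCe, limma and the methods' t-test each gave 0 adjusted and 0 unadjusted, against 0% and 4.74% of all named genes. Counting all 15 probes gave 0 adjusted calls in each comparison. The comparisons of rIPCe and of rIPCl with control used the same 5 control arrays.

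**Figure D1:**
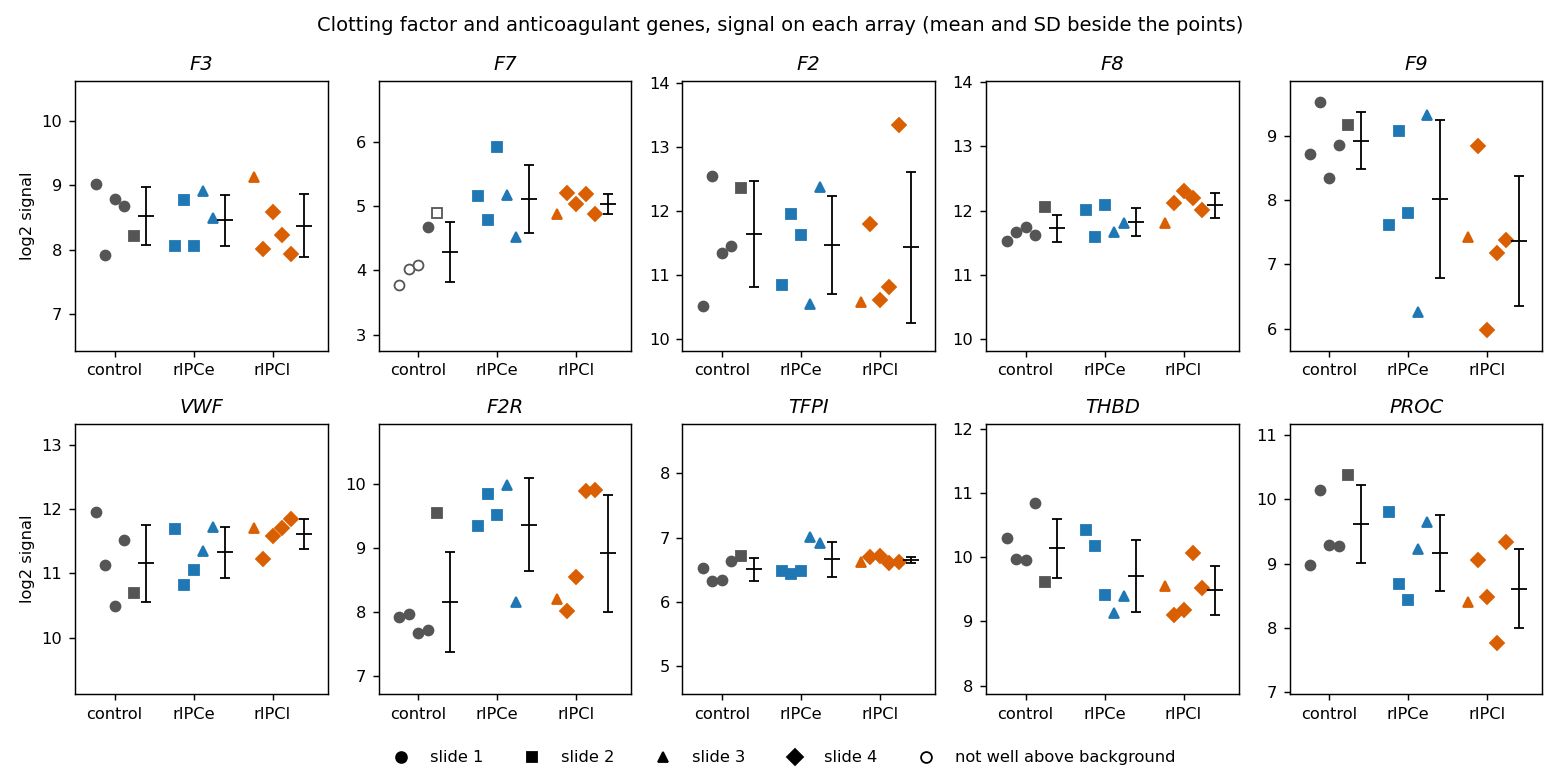
Log2 signal of the brightest probe of each gene (vertical axis, a span of equal height in every panel) on the 5 arrays of each group (horizontal axis), with the group mean and SD as bars beside the points; the marker shape gives the slide and an open marker a spot not well above background. The control, rIPCe and rIPCl points overlap in all 10 panels, and those of F2R lie in 2 separate ranges.

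**Figure D2:**
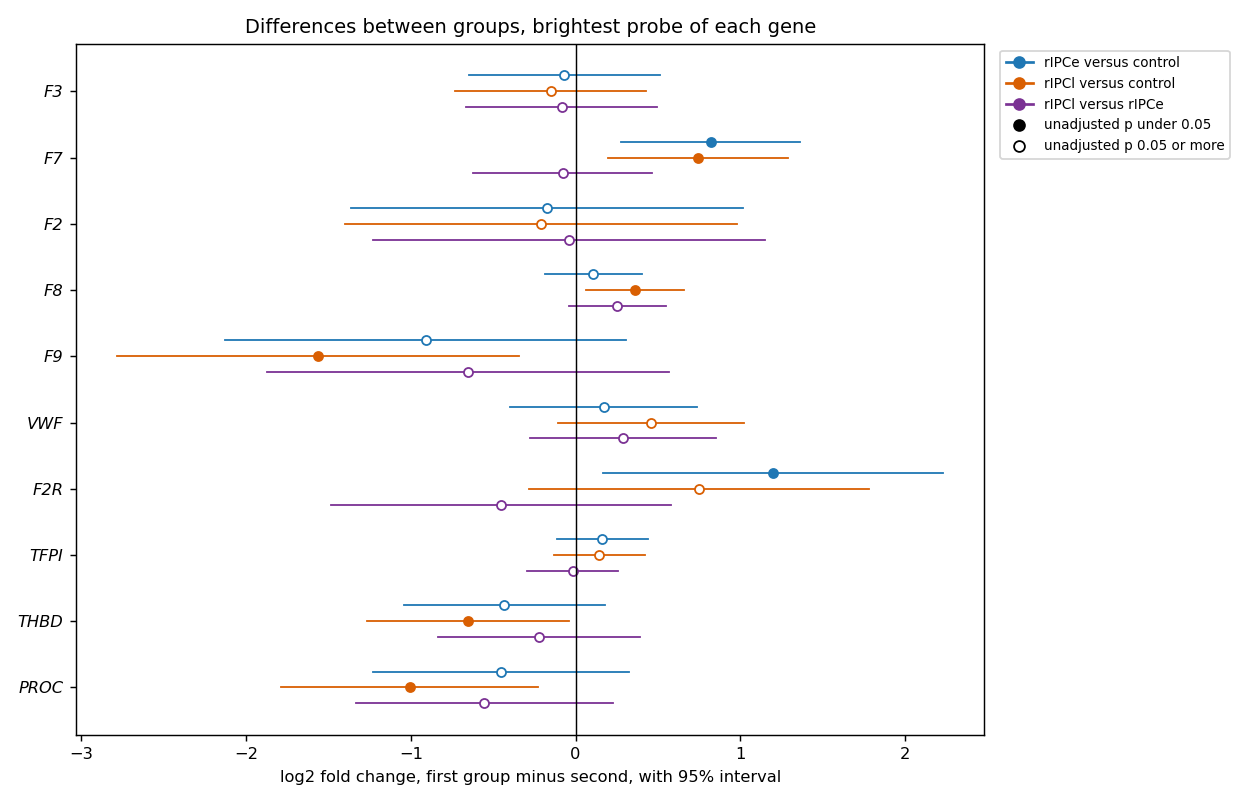
Log2 fold change of each gene, first-named group minus second (horizontal axis), with its 95% interval from limma in 3 comparisons; filled points have an unadjusted p under 0.05. The filled points are F7, F8, F9, THBD and PROC for rIPCl versus control and F7 and F2R for rIPCe versus control.

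The genes that start coagulation were described first. F3 encodes tissue factor, the trigger of the extrinsic pathway. Its log2 signal was 9.02, 7.92, 8.79, 8.68 and 8.22 in control pigs 1 to 5, 8.05, 8.78, 8.06, 8.91 and 8.49 in rIPCe, and 9.13, 8.00, 8.58, 8.23 and 7.93 in rIPCl. High and low arrays occurred in every group, and the groups overlapped throughout. The log2 fold change was −0.15 (SE 0.27, adjusted p = 0.759) in rIPCl versus control and −0.07 (SE 0.27, adjusted p = 0.937) in rIPCe versus control. The 95% interval in rIPCl, from −0.73 to 0.43, leaves room for a change of either direction. The second F3 probe gave −0.24 in rIPCl and −0.05 in rIPCe.

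F7 encodes factor VII, the protease that tissue factor binds. Its probe was dim. It was well above background on 1 of 5 control arrays, on 5 of 5 rIPCe arrays and on 5 of 5 rIPCl arrays. The log2 signals were 3.78, 4.03, 4.09, 4.67 and 4.89 in control pigs, 5.16, 4.79, 5.92, 5.17 and 4.52 in rIPCe, and 4.88, 5.20, 5.04, 5.19 and 4.87 in rIPCl. In each preconditioned group 3 of 5 arrays lay above all control arrays, and the others lay inside the control range. The detection flag did not follow this signal throughout. Control pig 5, at 4.89, was not well above background, while rIPCe pig 5, at 4.52, was. F7 was higher by 0.74 on the log2 scale in rIPCl (SE 0.25, adjusted p = 0.0849 by limma) and by 0.82 in rIPCe (SE 0.25, adjusted p = 0.212). Exact two-sided permutation tests over the arrays of the groups compared gave p = 0.0238 for rIPCl and p = 0.0397 for rIPCe, where the smallest attainable value is 0.00794. With another background correction (normexp on the median signal, offset 50), the same differences were 0.20 and 0.25. That setting changed the signal column, the correction and the offset together, and which of these moved the value was not tested. In bulk tissue, a different number of cells of one type and a different amount of RNA per cell cannot be told apart, for this gene and for those that follow.

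TFPI encodes tissue factor pathway inhibitor, which binds the tissue factor and factor VIIa complex together with factor Xa. It lay between 6.32 and 6.71 in control, between 6.43 and 7.01 in rIPCe and between 6.60 and 6.71 in rIPCl. The 5 rIPCl arrays lay within the control range, and the highest values were those of rIPCe pigs 4 and 5. The log2 fold change was 0.15 (SE 0.13, adjusted p = 0.494) in rIPCl and 0.16 (SE 0.13, adjusted p = 0.586) in rIPCe. The interval for rIPCl ran from −0.13 to 0.42, the narrowest of the 10 genes in this comparison.

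The genes of the amplifying complex and its carrier differed in direction. F9 encodes factor IX, a vitamin K-dependent protease. Its log2 signals were 8.73, 9.53, 8.35, 8.87 and 9.17 in control pigs, 7.62, 9.08, 7.81, 6.26 and 9.33 in rIPCe, and 7.43, 8.85, 5.99, 7.18 and 7.38 in rIPCl. In rIPCl 4 of 5 arrays lay below all control arrays and rIPCl pig 2 lay among them, while in rIPCe 3 arrays lay below. F9 showed the largest difference of the 10 genes in rIPCl versus control, −1.56 on the log2 scale (SE 0.57, 95% interval −2.78 to −0.34), which is 0.338 of the control level. The adjusted p was 0.102 and the exact permutation p 0.0238. In rIPCe the log2 fold change was −0.91 (SE 0.57, adjusted p = 0.483, exact permutation p = 0.159). The spread was wider in the preconditioned groups, with an SD of 1.02 in rIPCl and 1.24 in rIPCe beside 0.45 in control (n = 5 each). Leaving out single arrays moved the rIPCl value between −1.94 (without rIPCl pig 2) and −1.22 (without rIPCl pig 3).

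F8 encodes factor VIII, the cofactor of factor IXa. The log2 signals were 11.52, 11.66, 11.75, 11.62 and 12.06 in control pigs, 12.01, 11.58, 12.09, 11.66 and 11.80 in rIPCe, and 11.80, 12.11, 12.31, 12.20 and 12.00 in rIPCl. In rIPCl 3 of 5 arrays exceeded all control arrays, and control pig 5 stood above rIPCl pigs 1 and 5. F8 was higher in rIPCl by 0.36 on the log2 scale, or 1.28-fold (SE 0.14, adjusted p = 0.115, exact permutation p = 0.0317). The rIPCe difference was 0.11 (SE 0.14, adjusted p = 0.756). Without control pig 5 the rIPCl difference was 0.44 and its adjusted p 0.0480, and F7, at 0.89 with an adjusted p of 0.0410, passed in the same fit.

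VWF encodes von Willebrand factor, which carries factor VIII in plasma and tethers platelets. Its log2 signals were 11.95, 11.13, 10.49, 11.52 and 10.69 in control pigs, 11.69, 10.82, 11.05, 11.35 and 11.73 in rIPCe, and 11.71, 11.23, 11.58, 11.71 and 11.84 in rIPCl. The rIPCl arrays all lay inside the control range and above its median of 11.13, with an SD of 0.23 beside 0.60 in control. The log2 fold change was 0.46 (SE 0.26, adjusted p = 0.282) in rIPCl and 0.17 (SE 0.26, adjusted p = 0.806) in rIPCe. The second, dimmer VWF probe gave −0.01 in rIPCl (95% interval −0.82 to 0.81) and −0.20 in rIPCe, so it did not repeat the higher values. That interval includes 0.46, and a difference between the probes was not tested. Without control pig 1 the brightest probe gave 0.66 (adjusted p = 0.105), and without control pig 3 it gave 0.29.

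F2 encodes prothrombin, the precursor of thrombin. Its log2 signals were 10.52, 12.55, 11.34, 11.46 and 12.35 in control pigs, 10.85, 11.96, 11.62, 10.55 and 12.38 in rIPCe, and 10.59, 11.80, 10.61, 10.82 and 13.33 in rIPCl. Each group held low and high arrays, and the highest of all was rIPCl pig 5. The log2 fold change was −0.21 (SE 0.55, adjusted p = 0.842) in rIPCl and −0.17 (SE 0.55, adjusted p = 0.921) in rIPCe. The 95% interval in rIPCl ran from −1.40 to 0.98, beside SDs of 0.83 in control, 0.76 in rIPCe and 1.17 in rIPCl (n = 5 each).

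Of the measured genes of the protein C system, PROC and THBD were at lower values in rIPCl without passing the adjustment, while the receptor PROCR was at 0.42 (adjusted p = 0.304). PROC encodes protein C, the zymogen of an anticoagulant protease. Its log2 signals were 8.98, 10.14, 9.29, 9.27 and 10.38 in control pigs, 9.80, 8.69, 8.43, 9.23 and 9.65 in rIPCe, and 8.41, 9.06, 8.48, 7.76 and 9.34 in rIPCl. The rIPCl arrays were low, with 3 of 5 below every control array and the other 2 inside the lower part of the control range. The log2 fold change was −1.01 (SE 0.36, 95% interval −1.79 to −0.23), or 0.497 of the control level, with an adjusted p of 0.0986 and an exact permutation p of 0.0556. In rIPCe it was −0.45 (SE 0.36, adjusted p = 0.586). Leaving out single arrays kept the rIPCl value between −1.19 and −0.79, and the lowest adjusted p among these fits was 0.0755.

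THBD encodes thrombomodulin, the endothelial receptor that turns thrombin toward protein C. The log2 signals of its brightest probe were 10.30, 9.98, 9.96, 10.84 and 9.61 in control pigs, 10.42, 10.17, 9.41, 9.13 and 9.39 in rIPCe, and 9.56, 9.10, 9.17, 10.07 and 9.52 in rIPCl. In rIPCl 4 of 5 arrays lay below all control arrays and rIPCl pig 4 lay among them, and in rIPCe 3 of 5 lay below. The log2 fold change was −0.65 (SE 0.28, adjusted p = 0.160, exact permutation p = 0.0635) in rIPCl and −0.43 (SE 0.28, adjusted p = 0.508) in rIPCe. The other THBD probes were dimmer and gave −0.42 and −0.31 in rIPCl, in the same direction and with adjusted p values of 0.395 and 0.655 by limma. The first of these was well above background on 4 of 5 control arrays and on all rIPCe and rIPCl arrays. The last was so on 3 of 5 control, 2 of 5 rIPCe and 4 of 5 rIPCl arrays, so some of its values lay near background. Without control pig 4, the highest array, the rIPCl difference was −0.48 (adjusted p = 0.316).

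F2R encodes the protease-activated thrombin receptor, through which thrombin signals to endothelial and other cells. Its log2 signals were 7.92, 7.97, 7.67, 7.72 and 9.54 in control pigs, 9.34, 9.84, 9.51, 9.98 and 8.15 in rIPCe, and 8.20, 8.02, 8.55, 9.89 and 9.90 in rIPCl. The arrays fell in 2 ranges with none between 8.55 and 9.34. The upper range held control pig 5, rIPCe pigs 1 to 4 and rIPCl pigs 4 and 5, and the lower range held the rest. The second F2R probe placed the same arrays on each side, with its lower range ending at 8.48 and its upper range starting at 9.12. In rIPCe F2R was higher by 1.20 on the log2 scale, or 2.30-fold (SE 0.48, 95% interval 0.17 to 2.23), with an adjusted p of 0.290 and an exact permutation p of 0.0397, and the second probe gave 1.09. In rIPCl the log2 fold change was 0.75 (SE 0.48, adjusted p = 0.336). Control pig 5 was on slide 2 together with rIPCe pigs 1 to 3, and all 4 arrays of that slide were in the upper range. Within slide 2 the rIPCe difference from this 1 control array was 0.03. Slides 3 and 4 each held arrays of both ranges, and all arrays of slide 1 were in the lower range. Without control pig 5 the difference was 1.54 (adjusted p = 0.127) in rIPCe and 1.09 (adjusted p = 0.121) in rIPCl.

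**Figure D3:**
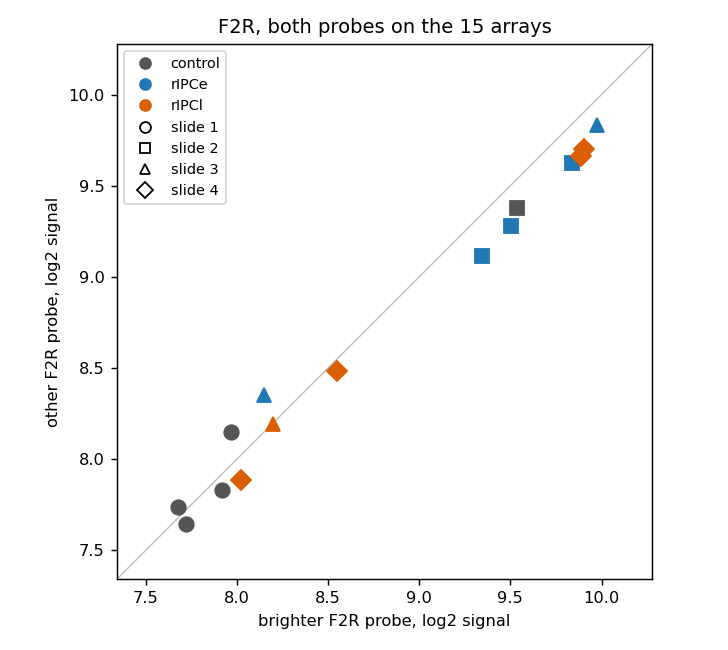
Log2 signal of the brighter F2R probe (horizontal axis) against the other F2R probe (vertical axis) on the 15 arrays, coloured by group and shaped by slide, with the line of equal values. Both probes divide the arrays alike, leaving a gap between 8.55 and 9.34 on the brighter probe, and control pig 5 is the control array in the upper range.

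Compared directly, the late and early windows gave no unadjusted p under 0.05 in the 10 genes. The smallest p was that of F8, which was higher in rIPCl than in rIPCe by 0.25 on the log2 scale (SE 0.14, 95% interval −0.04 to 0.55, adjusted p = 0.979, exact permutation p = 0.0873). PROC was at −0.55 (95% interval −1.33 to 0.22, adjusted p = 0.979) and F9 at −0.65 (95% interval −1.87 to 0.57, adjusted p = 0.979). F7 was at −0.08 (95% interval −0.62 to 0.47) and F2R at −0.45 (95% interval −1.48 to 0.58). These intervals include 0 and are wide, so they do not show that the windows acted alike. Without rIPCl pig 1 the F8 difference was 0.33, with an unadjusted p under 0.05 and an adjusted p of 0.670.

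The slides moved several of these values. With slide as a random block, a correlation of 0.228 was estimated between arrays of a slide, and 2 of the 10 genes had an unadjusted p under 0.05 in rIPCl versus control, F7 at 0.69 (adjusted p = 0.343) and PROC at −1.21 (adjusted p = 0.288), while 19.3% of all named genes had such a p, against 35.1% without a slide term. F9 was at −1.54 in that fit (SE 0.77, adjusted p = 0.376), F8 at 0.29 (adjusted p = 0.438) and THBD at −0.47 (adjusted p = 0.579). With slide as a fixed block the comparison of rIPCl with control rests on the single control array of slide 2 and the single rIPCl array of slide 3, linked through rIPCe. PROC was then lower by a larger amount, −2.45 (SE 0.96, adjusted p = 0.304). This value is the sum of the differences within slide 2 (−1.41, rIPCe minus control) and within slide 3 (−1.04, rIPCl minus rIPCe), so these are the same measurements and no second check. F9 kept its direction, at −1.37 (SE 1.70). THBD turned to 0.68 (SE 0.68), F8 to −0.10 (SE 0.29), F2R to −0.84 (SE 1.11) and TFPI to −0.58 (SE 0.21, adjusted p = 0.268). Slide and group cannot be told apart for most of these arrays, since 4 of 5 control arrays and 4 of 5 rIPCl arrays were alone with their group.

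**Figure D4:**
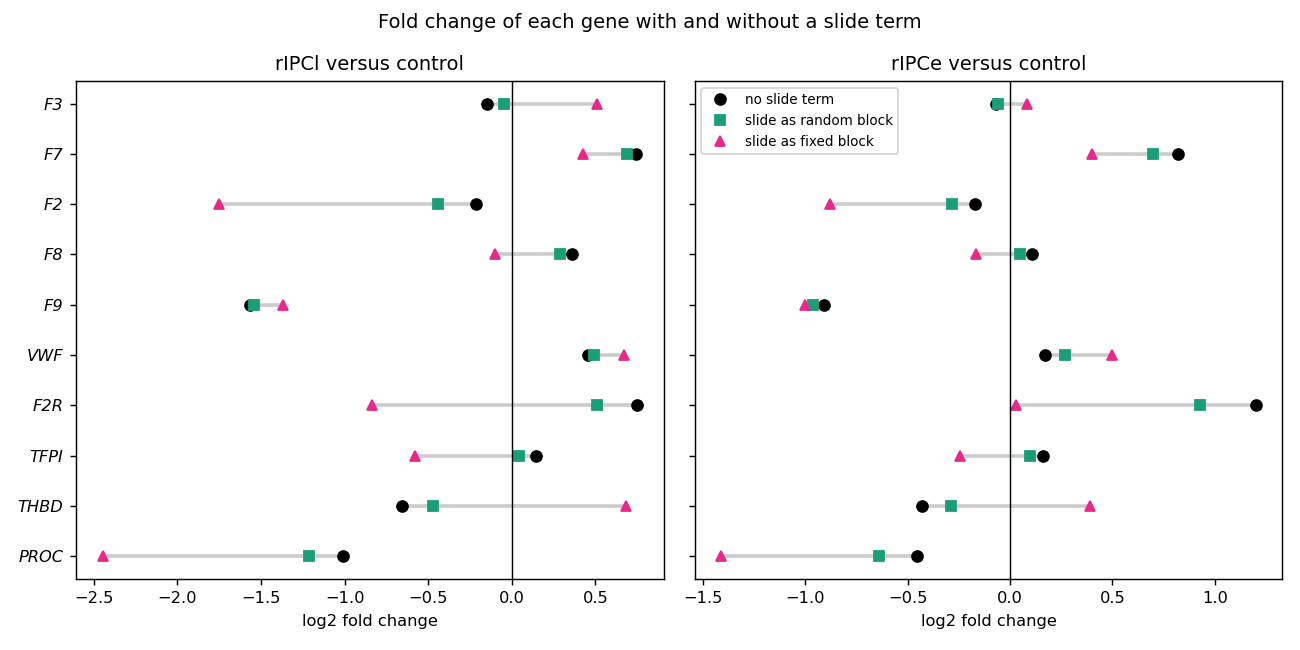
Log2 fold change of each gene (horizontal axis) in rIPCl versus control and in rIPCe versus control, from fits without a slide term, with slide as a random block and with slide as a fixed block. F9, PROC, F7, F2 and VWF keep their side of 0 in all 3 fits of both comparisons, and THBD, F8, TFPI and F3 change side with the fixed block. With the fixed block F2R changes side in rIPCl, from 0.75 to −0.84, and falls from 1.20 to 0.03 in rIPCe.

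The rest of the coagulation and fibrinolysis pathway was read from a list of 37 further genes, of which 15 were measured. In rIPCl versus control 9 were higher and 6 lower, and their median was 0.48 on the log2 scale. The genes with an adjusted p under 0.05 numbered 3 of the 15, all of them higher, against 9.5% of all named genes. PLAT, tissue plasminogen activator, rose by 1.06 on the log2 scale (SE 0.27, adjusted p = 0.0387 by limma), with 4 of 5 arrays above all control arrays. SERPING1, the inhibitor of the contact and complement proteases, rose by 1.06 (SE 0.20, adjusted p = 0.0221), with 5 of 5 above. SERPINE2, a serpin that inhibits thrombin and plasminogen activators, rose by 1.28 (SE 0.30, adjusted p = 0.0316), with 4 of 5 above. With slide as a fixed or a random block 0 of the 15 passed the adjustment, against 0.497% and 0% of all named genes. The count was also 0 without control pig 2 (0.662% of all named genes), rIPCl pig 3 (0.397%), rIPCl pig 4 (0.199%) or rIPCl pig 5 (0.0993%). With slide as a fixed block PLAT, SERPING1 and SERPINE2 were higher by 1.43, 0.55 and 2.09. Those values rest on the single control array of slide 2 and the single rIPCl array of slide 3, linked through rIPCe.

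At an unadjusted p under 0.05 the list of 15 held 6 higher genes and 1 lower gene in rIPCl, against 35.1% of all named genes. The further higher ones were PLAU (urokinase, 1.36), VTN (vitronectin, 1.15) and F12 (factor XII of the contact pathway, 0.91), and the lower one was F5, whose product is the cofactor of factor Xa (−0.50, adjusted p = 0.126). F10, the protease of the prothrombinase complex, was at −0.88 (adjusted p = 0.204), and plasminogen (PLG), the precursor of the enzyme that dissolves fibrin, at −1.58 (adjusted p = 0.202). PROCR, the endothelial receptor that holds protein C for activation by thrombin on thrombomodulin, was at 0.42 (adjusted p = 0.304), and SERPINC1, antithrombin, at −0.20 (adjusted p = 0.774). In rIPCe versus control 5 of the 15 were higher at an unadjusted p under 0.05 and none was lower, against 16.1% of all named genes. After adjustment 0 passed, against 0% of all named genes, and the median was 0.19. KLKB1 and SERPINA1 were not well above background on any array. The vitamin K-dependent proteins outside the clotting factors were represented by MGP, an inhibitor of calcification, which rose by 2.19 in rIPCl (SE 0.48, adjusted p = 0.0276), and by BGLAP, osteocalcin, at 0.69 (adjusted p = 0.126). MGP lost the adjusted call with slide as a fixed block, at 2.01 with an adjusted p of 0.586.

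**Figure D5:**
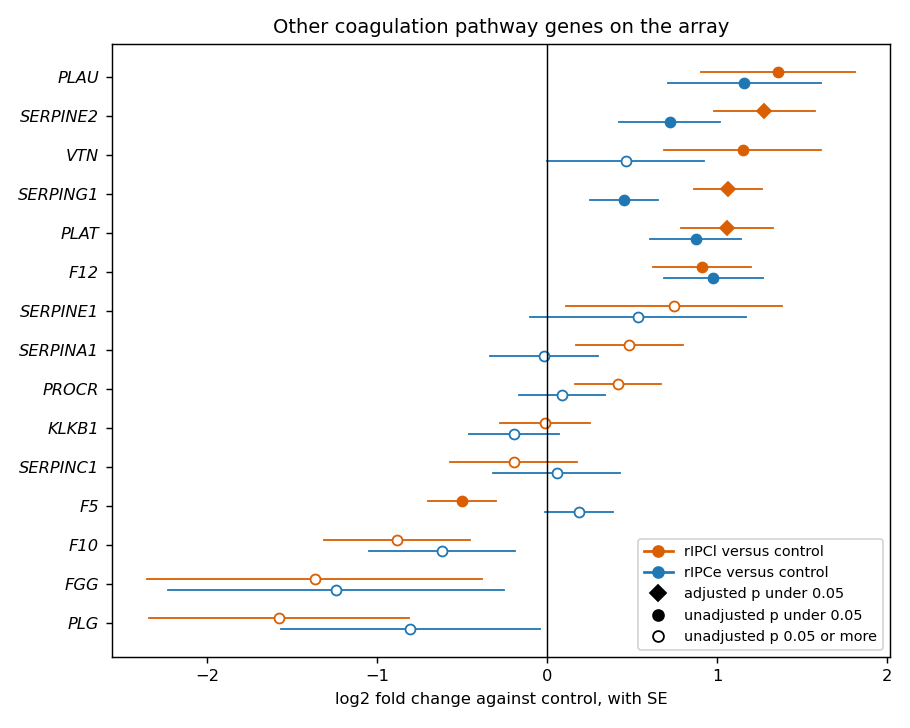
Log2 fold change against control with its SE (horizontal axis) for the 15 measured genes of the wider pathway, in rIPCl and in rIPCe; diamonds have an adjusted p under 0.05 and filled circles an unadjusted p under 0.05. PLAT, SERPING1 and SERPINE2 carry diamonds in rIPCl, and F10, FGG and PLG lie below 0 in both comparisons.

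Markers of the cells that make these proteins moved to different degrees. For the counts in these lists, 35.1% of all named genes had an unadjusted and 9.5% an adjusted p under 0.05 in rIPCl versus control. Among the 8 measured endothelial markers 3 were higher and 5 lower in rIPCl, and their median log2 difference was −0.04. ENG, a receptor of endothelial cells, rose by 0.77 (adjusted p = 0.0433 by limma), ICAM2 was at 0.57 and NOS3 at −0.31. Their summed signal ranged from 13.88 to 14.47 on the log2 scale in control, 14.03 to 14.18 in rIPCe and 13.81 to 14.51 in rIPCl, so the groups overlapped. Of 7 measured proximal tubule markers all 7 were lower in rIPCl, with a median of −0.94. SLC7A9, an amino acid transporter subunit, fell by 1.24 (adjusted p = 0.0239), SLC22A8 was at −1.51 and SLC3A1 at −0.94. The summed proximal tubule signal ranged from 15.90 to 16.80 in control, 15.78 to 16.58 in rIPCe and 15.41 to 16.33 in rIPCl, with medians of 16.49, 16.08 and 15.95.

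Of 5 measured genes of the hepatocyte list, TTR (transthyretin) was at −3.39 (adjusted p = 0.0569) and TF (transferrin) at −2.78 (adjusted p = 0.0916) in rIPCl. HP was at −0.51. The defining gene, ALB, was at 0.03 (SE 0.48), with means of 5.31 in rIPCl and 5.27 in control. The brightest of its 19 probes was dim, and it was well above background on 13 of 15 arrays. APOA1 was at 0.19. The summed signal ranged from 13.58 to 15.13 in control, 12.93 to 13.91 in rIPCe and 12.62 to 13.67 in rIPCl, with medians of 14.53, 13.35 and 13.15, and TTR and TF were the 2 genes of the list with an unadjusted p under 0.05. The 6 measured hepatic transcription factors had a median of 0.14 and 0 adjusted or unadjusted calls by limma.

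Of 6 macrophage markers, C1QA, C1QB and C1QC rose in rIPCl, by 1.65, 1.55 and 1.45 (adjusted p = 0.0244, 0.0244 and 0.0299 by limma). AIF1 was at 0.85 (adjusted p = 0.0601), CD163 at 0.90 (adjusted p = 0.210) and CD14 at −0.12. The median was 1.17, with 5 of the 6 higher and 1 lower. At an unadjusted p under 0.05, 4 were higher, against 35.1% of all named genes in either direction. The summed macrophage signal ranged from 13.28 to 14.67 in control, 13.76 to 14.60 in rIPCe and 14.02 to 15.38 in rIPCl. Of 5 platelet markers 4 were higher and 1 lower, with a median of 0.13. ITGA2B rose by 0.47 (adjusted p = 0.0348), GP9 was at 0.13 and GP1BB at −0.14, while TUBB1 was not well above background on any array and PPBP was so on 1 of 15. All 4 measured fibroblast markers were higher, 3 of them at an unadjusted p under 0.05 (35.1% of all named genes), with a median of 0.93. LUM rose by 1.49 (adjusted p = 0.0450), DCN was at 0.96 (adjusted p = 0.0709), COL1A2 at 0.91 (adjusted p = 0.175) and ACTA2 at 0.17. The 5 distal nephron markers gave 0 adjusted and 0 unadjusted calls by limma, with a median of −0.12, and the 1 measured podocyte marker, WT1, was at −0.55. With slide as a random block 0% of all named genes passed the adjustment in rIPCl versus control, so these marker calls were lost in that fit. The differences in that fit were 1.54 for C1QA, 1.39 for C1QB, 1.38 for C1QC, 0.88 for ENG, 0.43 for ITGA2B, 1.56 for LUM and −1.20 for SLC7A9. Over all 29 alternatives each gene kept its direction, but values went down to 0.84 for C1QA, 0.45 for C1QB and 0.14 for ITGA2B. The adjusted call was lost in 9 of the 29 for C1QA, 10 for C1QB, 12 for C1QC, 16 for ENG, 12 for ITGA2B, 14 for LUM and 6 for SLC7A9. The part of these shifts in the differences of the clotting genes was not tested.

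The genes whose pattern over the 15 arrays was most like each clotting gene were taken from the 2377 genes well above background on every array, by Pearson correlation, as a description that includes the differences between groups and slides. Being the highest of 2377 correlations over 15 arrays, these values are large partly by selection, and none was tested. The 3 genes most like F9 included CTSV (r = 0.86) and CLDN10 (0.82). PROC was most like BEX1 (r = 0.88), TAS1R3 (0.86) and LACTB (0.86). THBD was most like EEF1E1 (r = 0.91), SRSF10 (0.90) and APTX (0.89), and F8 most like DPH3 (r = 0.94), CRP (0.93) and SIM1 (0.92). F2 was most like MARCH6 (r = 0.81) and PPT2 (0.77), with antithrombin (SERPINC1, 0.74) next. VWF was most like RAMP2 (r = 0.81), ITM2A (0.75) and TLR4 (0.73), F3 most like ATF4 (0.83), SLN (0.72) and DIAPH1 (0.72), and F2R most like PRRT1 (0.74), TMEM242 (0.73) and RPS4X (0.72). The 3 genes most like TFPI included SPEF2 (r = 0.81) and LDHB (0.78). F7 was left out, since it was not well above background on every array.

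Over the 45 pairs of the 10 genes, correlations of the deviations from group means (n = 15 arrays) gave 0 adjusted and 5 unadjusted p values under 0.05 in permutation tests within groups. The pair with the smallest p was F7 and F8 (Pearson r = 0.64, permutation p = 0.0166, adjusted p = 0.395, Spearman rho = 0.55, permutation p = 0.0543), and r fell to 0.35 without the 2 arrays farthest from the median of F7. F7 was kept in the pairs although it was well above background on 1 of 5 control arrays, so some of its values lay near background. F2 and F9 gave r = 0.59 (permutation p = 0.0353, adjusted p = 0.395) and rho = 0.69 (permutation p = 0.0113), with r = 0.69 without the 2 farthest arrays. F2 and PROC gave r = 0.57 (permutation p = 0.0439, adjusted p = 0.395) and rho = 0.46 (permutation p = 0.113), with r = 0.41 without the 2 farthest arrays. Negative relations were those of F2 and F3, with r = −0.63 (permutation p = 0.0281, adjusted p = 0.395), rho = −0.66 (permutation p = 0.0179) and r = −0.65 without the 2 farthest arrays, and of F3 and F8, with r = −0.60 (permutation p = 0.0310, adjusted p = 0.395), rho = −0.57 (permutation p = 0.0426) and r = −0.62 without the 2 farthest arrays. With 15 arrays, pairs that missed the adjustment are not shown to vary independently. F9 and PROC gave r = 0.25 (permutation p = 0.401) and rho = 0.25 (permutation p = 0.390) within groups.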

How the data were processed

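Kidney RNA of 15 pigs was hybridised to single-colour Agilent arrays. The authors deposited scanner output and probe values as intensities on a linear scale, background-corrected within each array by Agilent Feature Extraction 11.0.1.1 (per the file headers) and not normalized between arrays. The files name no genome build. Here outlier spots were left out, signals were log2 transformed and quantile normalized over 15 arrays, with repeated spots averaged per probe. Probes listed by RefSeq accession received symbols through the RefSeq annotation of Sscrofa11.1 (6686 of 43603 probes, 3020 genes).

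A mean per group was fitted with limma 3.58.1 in R 4.3.3 with data.table (version 1.17.8), with Benjamini-Hochberg adjustment over 43603 probes. Exact permutation tests ran over the 252 assignments of 10 arrays to the groups. Pair correlations used 100000 resamples. Figures were drawn with matplotlib 3.10.9. The pipeline was tested on simulated data. The number of arrays limits the precision.

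The genes and lists were chosen with earlier results of these data known. Named were all 10 genes with every probe, list genes with an adjusted p under 0.05 or among the 3 lowest p of their list, and the 3 most correlated genes. Other list genes were named after their values were seen. The results of a few genes that this rule names are not reported here. Replicate numbers did not pair the pigs (15 same-numbered pairs, r −0.26 to 0.07).

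Alternatives were 75th-percentile or no normalization, the deposited table, normexp background correction, a fit without dim probes, retained outlier spots, a fit to the arrays compared alone, a replicate or slide block, array weights, trended robust eBayes, the methods' t-test, the mean of all probes and each array left out.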

Additional observations from a re-analysis of the deposited data

Results flagged for a closer look

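F2R stood out on 1 of the control arrays. Control pig 5 had a log2 signal of 9.54, while the other control arrays lay between 7.67 and 7.97, and the gap made up 0.841 of the range of the group. The second F2R probe placed the same array apart, at 9.38. This was 1 of 30 groups of 5 examined, and chance alone is expected to mark about 1 in 20. Control pig 5 was the control array hybridised on slide 2 with 3 rIPCe arrays, and the part of the slide was not tested.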

How the results depend on the processing

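In rIPCl versus control, the count of the 10 genes with an adjusted p under 0.05 rose from 0 to 2 with array weights (F7 and F8), where 31.6% of all named genes passed against 9.5% as reported, and leaving out single arrays gave 0 to 2, the 2 being F7 and F8 without control pig 5 (13.7% of all named genes). The unadjusted count of 5 became 2 with slide as a fixed block (PROC and TFPI, 14.7% of all named genes). It became 2 with slide as a random block (F7 and PROC, 19.3%, against 35.1% as reported). Leaving out single arrays gave 3 to 6, beside 28.7% to 37.4% of all named genes. The count of 3 (F7, F9 and PROC) came without rIPCl pig 3 (28.7%). In rIPCe versus control, the unadjusted count of 2 became 0 with slide as a fixed block (10.4% of all named genes). It became 1 with slide as a random block (10.1%, against 16.1% as reported). Leaving out single arrays gave 1 to 3, beside 11.5% to 22.3% of all named genes. The count was 1 without control pig 3 (12.6%), control pig 4 (12.6%), rIPCe pig 2 (14.6%) or rIPCe pig 4 (13.4%). In rIPCl versus rIPCe, leaving out single arrays gave 0 to 1 at an unadjusted p, beside 3.41% to 8.77% of all named genes. The count was 1 without rIPCe pig 3 (5.53%) or rIPCl pig 1 (8.77%). The cause of these changes was not tested. With the replicate number as a block the counts were 0 adjusted and 5 unadjusted in rIPCl (3.74% and 33.4% of all named genes). They were 0 and 3 in rIPCe (0% and 15.9%) and 0 and 0 between windows (0% and 4.34%). In that fit the other pathway genes with an adjusted p under 0.05 in rIPCl fell from 3 to 1. That count was 6 with array weights (31.6% of all named genes) and 5 without control pig 1 (13.3%). It was 1 by the methods' t-test (4.74%), 1 without control pig 3 (1.52%) or control pig 4 (2.81%), and 0 without normalization (6.69%). Of 890 fold changes of the 10 genes under alternatives, 41 had the opposite sign to the reported value, none under the other normalizations, the deposited table or normexp. The median of all probes in rIPCl moved from −0.03 to −0.11 with the 75th percentile and to −0.24 without normalization. No slide held control and rIPCl arrays, so no within-slide value exists for that comparison, and normexp on the mean signal was not run. F7 was limited by signal, being well above background on 11 of 15 arrays.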
